A study of Mus musculus with 6 samples.

Results

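The platelet-derived growth factor (PDGF) genes of cultured mouse hepatic stellate cells comprise 4 ligand genes (Pdgfa, Pdgfb, Pdgfc and Pdgfd), the receptor genes Pdgfra and Pdgfrb, and the receptor-like gene Pdgfrl. They were taken by gene symbol, and all 7 were found among the 24940 genes of the deposited table. The forskolin group was primary stellate cells of wild-type female mice of the strain labelled C57BL6/JBomTac (C57BL/6JBomTac in the culture notes), which on day 2 after isolation were exposed to 5 µM forskolin during 3 h. After a change of medium they were kept for another 21 h, which makes 24 h from the start. The vehicle group was the same kind of cells given an equal volume of dimethyl sulfoxide and handled alike. Forskolin, a compound from a plant root, switches on the enzyme that makes cyclic AMP. Each group had 3 libraries of polyadenylated RNA, labelled A, B and C, and the comparison sets the PDGF genes of cells a day after the forskolin pulse against those of vehicle cells. The labels do not say whether libraries came from separate animals or cultures, and the p-values therefore reflect spread among these 6 libraries that may be technical.

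PDGF ligands are secreted dimers that bring receptor chains together at the cell surface, after which the receptors phosphorylate each other and recruit signalling proteins. The chain encoded by Pdgfrb is the receptor through which PDGF-B and PDGF-D act best, and the chain encoded by Pdgfra also binds PDGF-A and PDGF-C. In injured liver, platelets, macrophages and endothelial cells supply ligand, stellate cells carry the receptors, and PDGF is their best known mitogen. PDGF-A and PDGF-B are processed inside the cell by furin-like convertases, whereas PDGF-C and PDGF-D leave the cell in a latent form and are activated outside it by proteases.

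Of the 7 genes, 6 had enough counts to be tested and 4 of them fell with forskolin: the ligand genes Pdgfd and Pdgfa, the receptor gene Pdgfrb and the receptor-like gene Pdgfrl. None rose. Across the 13357 tested genes, 25.1% were lower and 24.8% were higher (edgeR quasi-likelihood test, Benjamini-Hochberg adjusted p under 0.05), together 49.9%. That balance depended on the scaling, with 3988 genes higher and 2874 lower with library size alone and 3764 higher and 2997 lower with upper quartile factors. The median log2 fold change was -0.50 over the 6 tested PDGF genes and 0.0082 over all tested genes. Each of the 4 genes was lower in every forskolin library than in any vehicle library, a pattern found for 28.3% of tested genes. The reverse pattern was found for 28.8%, and the groups did not overlap in either direction for 57.2%. Total deposited counts ranged from 10890193 to 12954310 per forskolin library and from 13001358 to 15090262.5 per vehicle library. Levels are CPM, each gene's count as a share of the library's total count after scaling by the TMM method, and comparisons between genes use CPM per kb of exon. In RNA from whole cultures, fewer cells of a type and less RNA per cell cannot be told apart.

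The upstream sequences of 3 of these genes are shown first because they set 2 genes that fell, Pdgfa and Pdgfd, beside Pdgfra, which did not pass the test. RefSeq start sites on GRCm38.p6 were matched for 4 of the 7 genes, Pdgfa, Pdgfc, Pdgfd and Pdgfra, and not for Pdgfb, Pdgfrb or Pdgfrl. Each sequence below is the 250 bases before the start site, 5′ to 3′ on the gene's own strand. Capitals mark matches on either strand to TGACG, the short form of the cyclic AMP response element, to the SP1 site GGGCGG and to TATAAA. The full element TGACGTCA, which contains the short form, the EGR1 site GCGTGGGCG and the CCAAT box were searched too and matched in none of the 4 windows.
Pdgfa, chr5:138994945-138995194, minus strand: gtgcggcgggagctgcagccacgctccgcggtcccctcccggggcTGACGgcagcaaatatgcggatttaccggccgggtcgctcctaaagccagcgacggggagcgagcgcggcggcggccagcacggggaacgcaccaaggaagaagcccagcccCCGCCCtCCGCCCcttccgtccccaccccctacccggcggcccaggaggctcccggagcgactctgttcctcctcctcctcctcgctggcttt
Pdgfd, chr9:6168236-6168485, plus strand: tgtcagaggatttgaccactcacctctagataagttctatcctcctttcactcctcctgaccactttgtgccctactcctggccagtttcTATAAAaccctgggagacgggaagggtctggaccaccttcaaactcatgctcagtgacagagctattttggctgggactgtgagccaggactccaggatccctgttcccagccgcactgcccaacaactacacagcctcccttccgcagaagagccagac
Pdgfra, chr5:75152001-75152250, plus strand: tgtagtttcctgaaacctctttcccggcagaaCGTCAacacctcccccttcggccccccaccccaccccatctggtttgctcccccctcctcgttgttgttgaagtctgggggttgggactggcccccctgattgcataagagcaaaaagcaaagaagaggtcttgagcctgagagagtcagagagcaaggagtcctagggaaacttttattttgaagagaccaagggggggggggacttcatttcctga

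Pdgfa had 1 match to TGACG, starting 205 bases before the start site, and 2 SP1 matches on the opposite strand, at 93 and 86 bases. A further RefSeq start site of Pdgfa lay 672 bases downstream of the start of the counted transcript. Its window is not shown and was not searched for matches in this gene. The Pdgfc window held none of the motifs. Pdgfra had 1 match to the short element, on the opposite strand at 218 bases. Pdgfd had none, and its single match was TATAAA at 160 bases. The Pdgfa window was 72.4% G and C, against 53.6% for Pdgfd, 54.4% for Pdgfra and a median of 52.4% over all windows. Of 32851 upstream windows of this length in the RefSeq table, 17.8% held TGACG, 1.55% the full TGACGTCA, 32.7% the SP1 site, 33.8% CCAAT, 12.4% TATAAA and 0.536% the EGR1 site. These matches describe the letters in the window only.

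Among the tested ligand genes, Pdgfd, whose product acts mainly through the beta receptor, changed most. Pdgfd (NM_027924, mm10 chromosome 9, 6168486 to 6378845, plus strand) had 17.0, 18.1 and 17.4 CPM in forskolin libraries A, B and C, against 34.3, 34.3 and 33.5 CPM in vehicle libraries A, B and C. The groups lay far apart relative to their spread, with means of 17.5 ± 0.555 CPM with forskolin and 34.0 ± 0.422 CPM with vehicle (SD, n = 3 each). Pdgfd was 48.4% lower, and its log2 fold change, -0.96 ± 0.0803 (SE), passed the test (edgeR adjusted p = 1.49e-08). A lower fold change was found for 4.16% of tested genes. It was the 1 PDGF gene that also passed a test against a 1.5-fold change (adjusted p = 0.000462), a setting added once the data had been seen, in which 1000 of all tested genes passed.

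Pdgfa encodes the chain of PDGF-AA, the ligand of the alpha receptor, and was by far the most abundant ligand transcript. Pdgfa (NM_008808, chromosome 5, 138976972 to 138994953, minus strand) had 35.9, 30.8 and 33.4 CPM in forskolin libraries A, B and C, against 49.9, 50.6 and 48.2 CPM in the vehicle libraries. The forskolin libraries varied more than the vehicle libraries, and all of them were lower. Its means were 33.4 ± 2.54 CPM with forskolin and 49.6 ± 1.23 CPM with vehicle (SD, n = 3 each), a fall of 32.8% (log2 fold change -0.57, SE 0.0703, edgeR adjusted p = 2.02e-06). An antisense gene, 6330403L08Rik, shares 670 of the 3150 stretches of 50 bases in the GENCODE transcripts of Pdgfa, but none of the exon bases within the span of the counted transcript overlapped another gene.

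Pdgfc and Pdgfb were close to the limit of counting. Pdgfc, a further ligand of the alpha receptor (NM_001357746, chromosome 3, 81036416 to 81214040, plus strand), had 27, 16 and 17 counts in forskolin libraries A, B and C and 21, 23 and 18.5 counts in vehicle libraries A, B and C. The groups overlapped, and forskolin A was the highest of the 6 libraries. Pdgfc did not pass (log2 fold change 0.14 ± 0.314, SE, edgeR adjusted p = 0.738), and the sign turned without forskolin A, where the value was -0.21. The ratio of its pooled counts, forskolin over vehicle, was 1.08 with an exact 95% binomial interval of 0.744 to 1.56. That interval leaves out the spread between libraries and is not a limit of detection. Counting error alone thus allowed a change in either direction at this depth.

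Pdgfb encodes the chain of PDGF-BB, a ligand of both receptors, and was the scarcest gene of the family. Pdgfb (NM_011057, chromosome 15, 79995876 to 80014808, minus strand) had 2, 3 and 7 counts with forskolin and 4, 16 and 11.5 counts with vehicle in libraries A, B and C, and did not reach the count filter. The highest forskolin library lay above the lowest vehicle library. Its pooled ratio, forskolin over vehicle, was 0.424 with an exact 95% binomial interval of 0.199 to 0.847. These intervals cover counting error only. In a fit without the filter, over 18899 genes, Pdgfb did not pass (log2 fold change -1.21 ± 0.607, SE, edgeR adjusted p = 0.109).

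**Figure D1:**
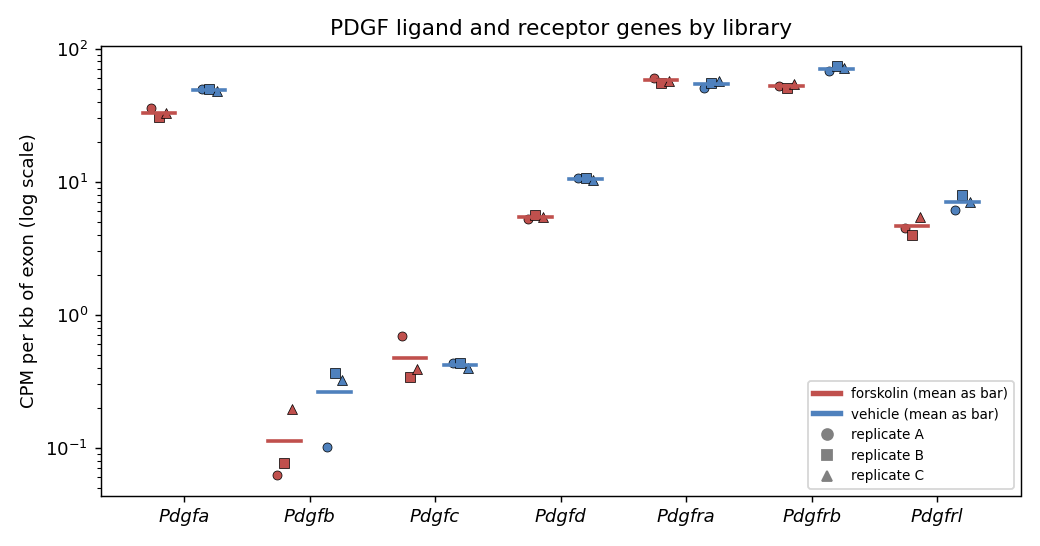
Level of each PDGF gene in CPM per kb of exon (log axis) in the 3 forskolin libraries (red, left of each pair) and the 3 vehicle libraries (blue, right), with symbols for replicates A, B and C and a bar at each mean. Pdgfra, Pdgfrb and Pdgfa lie between 30.5 and 73.5 in every library, while Pdgfb and Pdgfc stay below 0.7 and overlap between groups.

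Per kb of exon, the ligand genes summed to 41.6, 36.5 and 39.0 CPM in forskolin libraries A, B and C, against 60.5, 61.5 and 58.8 CPM in the vehicle libraries. Pdgfa made up 84.6% ± 1.00 of that sum with forskolin and 81.4% ± 0.244 with vehicle, and Pdgfd 13.9% ± 1.34 with forskolin and 17.4% ± 0.196 with vehicle (SD, n = 3 each). Pdgfd therefore took a smaller share of the ligand transcripts in each forskolin library, 12.7% to 15.3%, than in the vehicle libraries, 17.2% to 17.6%. Pdgfc and Pdgfb together stayed minor, with means of 1.20% and 0.288% with forskolin and 0.698% and 0.436% with vehicle. These sums and shares were chosen after the data were seen and carry no test.

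Of the receptor genes, Pdgfrb fell and Pdgfra did not pass the test. Pdgfrb, the receptor of pericytes and activated stellate cells (NM_001146268, chromosome 18, 61045150 to 61085067, plus strand), had 281, 275 and 291 CPM in forskolin libraries A, B and C, against 363, 396 and 383 CPM in the vehicle libraries. The highest forskolin library was well below the lowest vehicle library. The means were 282 ± 7.99 CPM with forskolin and 381 ± 16.7 CPM with vehicle (SD, n = 3 each), 25.9% lower (log2 fold change -0.43, SE 0.0434, edgeR adjusted p = 1.67e-07). Of tested genes, 13.3% had a lower fold change.

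Pdgfra, whose product binds PDGF-A, PDGF-B and PDGF-C (NM_011058, chromosome 5, 75152251 to 75198206, plus strand), had 392, 365 and 378 CPM in forskolin libraries A, B and C and 335, 361 and 373 CPM in the vehicle libraries. The groups overlapped, since vehicle C exceeded forskolin B. Its means were 378 ± 13.7 CPM with forskolin and 356 ± 19.5 CPM with vehicle (SD, n = 3 each), and the log2 fold change, 0.09 ± 0.0460 (SE, edgeR adjusted p = 0.127), did not pass. Scaled by library size alone, without TMM factors, it was 0.13 and passed (adjusted p = 0.0162). The antisense gene Gm42802 overlaps 4.55% of the exon bases of Pdgfra, and the labels do not say that counting used strand.

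**Figure D2:**
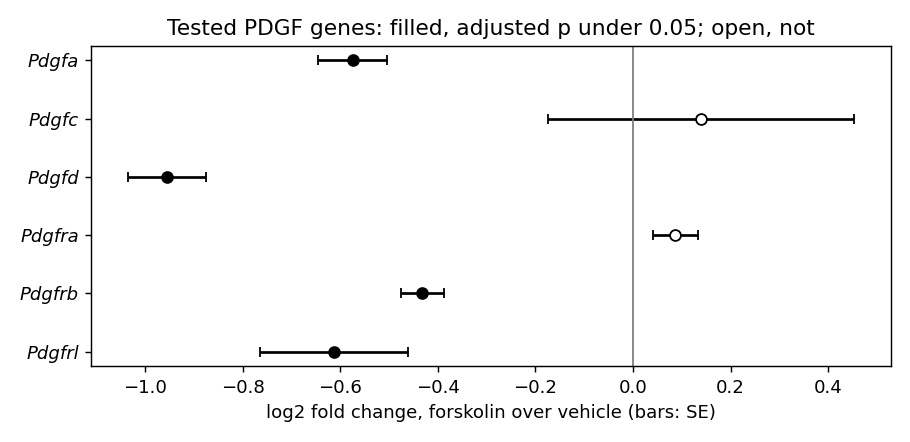
Log2 fold change, forskolin over vehicle, of the 6 tested PDGF genes with SE bars, filled where the edgeR adjusted p was under 0.05 and open where it was not. Pdgfd is farthest below 0 at -0.96, Pdgfa, Pdgfrl and Pdgfrb lie between -0.61 and -0.43, and Pdgfc and Pdgfra lie just above 0.

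The ratio of the receptors turned over between the groups. Per kb of exon, Pdgfrb over Pdgfra was 0.874, 0.918 and 0.939 in forskolin libraries A, B and C, against 1.32, 1.34 and 1.25 in the vehicle libraries. Pdgfra was thus the more abundant receptor transcript in each forskolin library and Pdgfrb in each vehicle library. On the log2 scale the ratio averaged -0.14 ± 0.0523 with forskolin and 0.38 ± 0.0521 with vehicle (SD, n = 3 each), a difference of -0.52 that was far larger than those SDs. The exact two-sided permutation test gave p = 0.1, the smallest value that 3 libraries against 3 allow. A ratio within a library does not depend on how libraries are scaled, though its position relative to 1 rests on the exon lengths of the table.

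**Figure D3:**
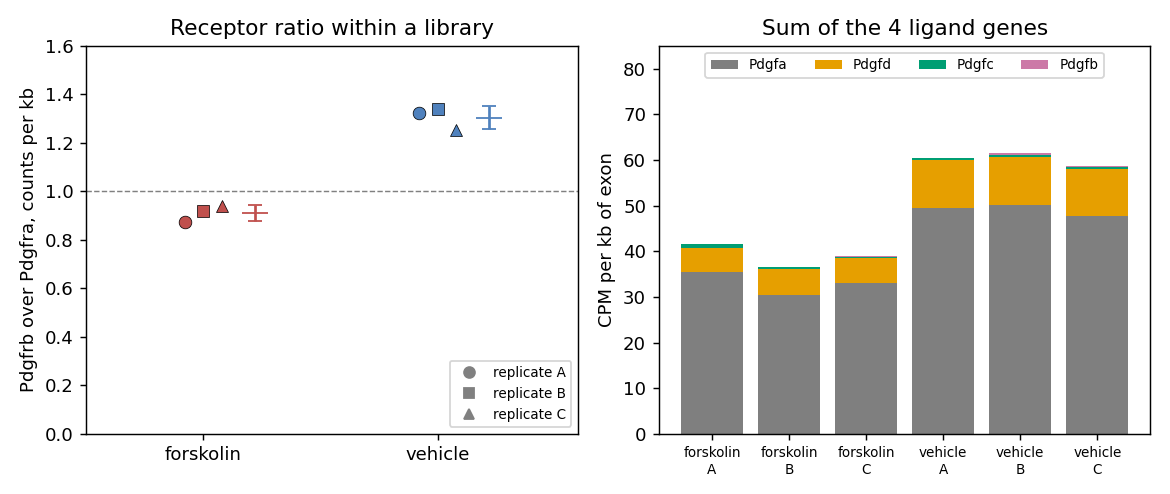
Left, the ratio of Pdgfrb to Pdgfra in counts per kb within each library, forskolin left of vehicle, with mean and SD beside the points; the forskolin libraries lie at 0.874 to 0.939 and the vehicle libraries at 1.25 to 1.34. Right, the summed level of the ligand genes in CPM per kb by library, stacked by gene, with 36.5 to 41.6 in forskolin libraries and 58.8 to 61.5 in vehicle libraries, mostly Pdgfa.

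Pdgfrl encodes a secreted protein that resembles the ligand-binding part of the receptors, and its function in stellate cells is not settled. Pdgfrl (NM_026840, chromosome 8, 40926233 to 40990770, plus strand) had 6.83, 6.04 and 8.22 CPM in forskolin libraries A, B and C, against 9.37, 12.1 and 10.7 CPM in the vehicle libraries. The groups did not overlap, but the gap between forskolin C and vehicle A was about as large as the SD within groups. The means were 7.03 ± 1.10 CPM with forskolin and 10.7 ± 1.34 CPM with vehicle (SD, n = 3 each), 34.6% lower (log2 fold change -0.61, SE 0.151, edgeR adjusted p = 0.00253). With log library size as a covariate the call was lost (log2 fold change -0.55, adjusted p = 0.0945).

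Ordered by CPM per kb, the forskolin libraries ran from Pdgfra (57.6 ± 2.08) through Pdgfrb (52.4 ± 1.48), Pdgfa (33.0 ± 2.51), Pdgfd (5.41 ± 0.171), Pdgfrl (4.61 ± 0.722) and Pdgfc (0.473 ± 0.189) to Pdgfb (0.112 ± 0.0734). With vehicle the order was Pdgfrb (70.7 ± 3.09), Pdgfra (54.2 ± 2.97), Pdgfa (49.1 ± 1.22), Pdgfd (10.5 ± 0.130), Pdgfrl (7.03 ± 0.880), Pdgfc (0.421 ± 0.0207) and Pdgfb (0.263 ± 0.142), all SD with n = 3. The libraries of neighbours overlapped with forskolin for Pdgfd and Pdgfrl alone. With vehicle none overlapped, but the lowest library of Pdgfra, 51.0, and the highest of Pdgfa, 50.1, were closer than the SD of Pdgfra. Among tested genes, 13.9% had a higher level per kb than Pdgfrb with forskolin and 9.89% with vehicle, and 23.6% had a higher level than Pdgfa with forskolin and 15.5% with vehicle. For Pdgfra these shares were 12.5% with forskolin and 13.8% with vehicle. Both receptor transcripts were thus among the more abundant in these cells in either group.

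Proteases that process or release PDGF ligands moved in both directions. Of 14 genes, all tested, 3 rose and 7 fell (median log2 fold change -0.15). Plat, which encodes tissue plasminogen activator, the activator of latent PDGF-C, had 257, 316 and 309 CPM in forskolin libraries A, B and C, against 49.0, 53.6 and 54.8 CPM in the vehicle libraries, and so was 5.60-fold higher (log2 fold change 2.49, edgeR adjusted p = 7.92e-15). Plau, which encodes urokinase, an activator of latent PDGF-D, had 425, 382 and 394 CPM in forskolin libraries against 271, 261 and 273 CPM in vehicle libraries (log2 fold change 0.58, adjusted p = 5.26e-09). Not all activator genes rose. St14, which encodes matriptase, another protease that cleaves PDGF-D, fell to 1.97 CPM with forskolin, against 6.85 CPM with vehicle (log2 fold change -1.79, adjusted p = 1.47e-06), and was named after its value was seen. Furin, a convertase of PDGF-A and PDGF-B, was at 304 ± 1.86 CPM with forskolin and 307 ± 1.99 CPM with vehicle (adjusted p = 0.778), while the related convertase gene Pcsk6 fell to 18.8 ± 3.79 CPM with forskolin, against 52.2 ± 3.49 CPM with vehicle (log2 fold change -1.48, adjusted p = 1.32e-09; SD, n = 3 each). The secreted glycoprotein gene Thbs1 fell by 0.65 on the log2 scale.

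Of 12 tested genes for co-receptors and membrane partners, out of 13 in the table, 1 rose and 5 fell (median -0.12). Nrp1, which encodes neuropilin-1, a co-receptor reported for PDGF, fell to 212, 186 and 201 CPM in forskolin libraries A, B and C, against 371, 373 and 383 CPM in the vehicle libraries (log2 fold change -0.91, edgeR adjusted p = 1.58e-11). The groups were separated by much more than their spread. The heparan sulfate proteoglycan gene Sdc4 fell by 0.64 and the caveolin gene Cav1 by 0.97, and S1pr1, which encodes a sphingosine 1-phosphate receptor, rose to 48.9 ± 5.47 CPM with forskolin, against 21.7 ± 3.12 CPM with vehicle (SD, n = 3 each). Without forskolin B the count of members that rose was 2. Lrp1, a large endocytic receptor that partners the beta receptor, was at 2224 ± 164 CPM with forskolin and 2327 ± 128 CPM with vehicle (adjusted p = 0.345).

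Genes for signal transducers that act close to receptors, not all of them binding PDGF receptors, had 9 of 31 tested genes higher and 12 lower (32 in the table, median -0.03). The phosphoinositide 3-kinase genes that passed, Pik3ca, Pik3cb, Pik3r1, Pik3r2 and Pik3r3, were all lower. Adaptor and kinase genes were split, with Nck1, Nck2, Fyn and Yes1 higher and Abl1, Abl2, Frs2, Irs1 and Irs2 lower. Both groupings were made after the values were seen. Over all tested genes 24.8% were higher and 25.1% lower. Pik3r1, a regulatory subunit gene, had 99.1, 79.9 and 87.9 CPM in forskolin libraries against 137, 141 and 139 CPM in vehicle libraries (log2 fold change -0.65, edgeR adjusted p = 6.25e-08). Fyn, a Src family kinase gene, rose to 125 ± 4.92 CPM with forskolin, against 71.4 ± 0.373 CPM with vehicle (log2 fold change 0.80; SD, n = 3 each). Irs1, an insulin receptor substrate gene, fell by 1.70 and the Ras GTPase-activating protein gene Rasa1 by 0.49. Ptpn11, whose product SHP2 binds both receptors, was at 404 ± 5.53 CPM with forskolin and 388 ± 4.22 CPM with vehicle (adjusted p = 0.209), and passed with library size alone (log2 fold change 0.10, adjusted p = 0.0225).

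Further along the pathway, 8 of 21 genes of the Ras, MAP kinase, AKT and protein kinase C group rose and 6 fell (median 0.02). Among them the protein kinase C gene Prkcd fell by 0.46 and Akt2 by 0.30 on the log2 scale. The number that rose was 5 without forskolin B, without vehicle A and with log library size as a covariate. Of 22 tested genes for degradation and dephosphorylation of the receptors (23 in the table), 5 rose and 7 fell (median -0.02). With the covariate 4 of them fell. Cblb, which encodes a ubiquitin ligase of the CBL family, fell to 51.6 ± 3.85 CPM with forskolin, against 89.2 ± 2.41 CPM with vehicle (log2 fold change -0.79, edgeR adjusted p = 3.05e-09; SD, n = 3 each). The phosphatase gene Ptprk fell by 0.42 and the endosomal sorting gene Stam2 by 0.38, and Socs3, a feedback inhibitor of cytokine receptors, rose by 0.99. Cbl itself (adjusted p = 0.483), Ptpn1 (0.475) and Ptpn2 (0.965), whose phosphatase products dephosphorylate PDGF receptors, did not pass.

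Immediate early genes, which growth factors induce within the hour, were split at this late time, with 7 of 20 higher and 7 lower (median -0.03). Fosb fell to 4.34 ± 1.34 CPM with forskolin, against 18.3 ± 0.606 CPM with vehicle, and Btg2 to 59.9 ± 4.80 CPM with forskolin, against 128 ± 5.42 CPM with vehicle (SD, n = 3 each). The growth factor gene Hbegf fell by 1.13 on the log2 scale. Fosl2 rose by a log2 fold change of 0.42. With log library size as a covariate, 4 rose. These lists were set against 24.8% higher and 25.1% lower over all tested genes, and none was tested as a set.

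**Figure D4:**
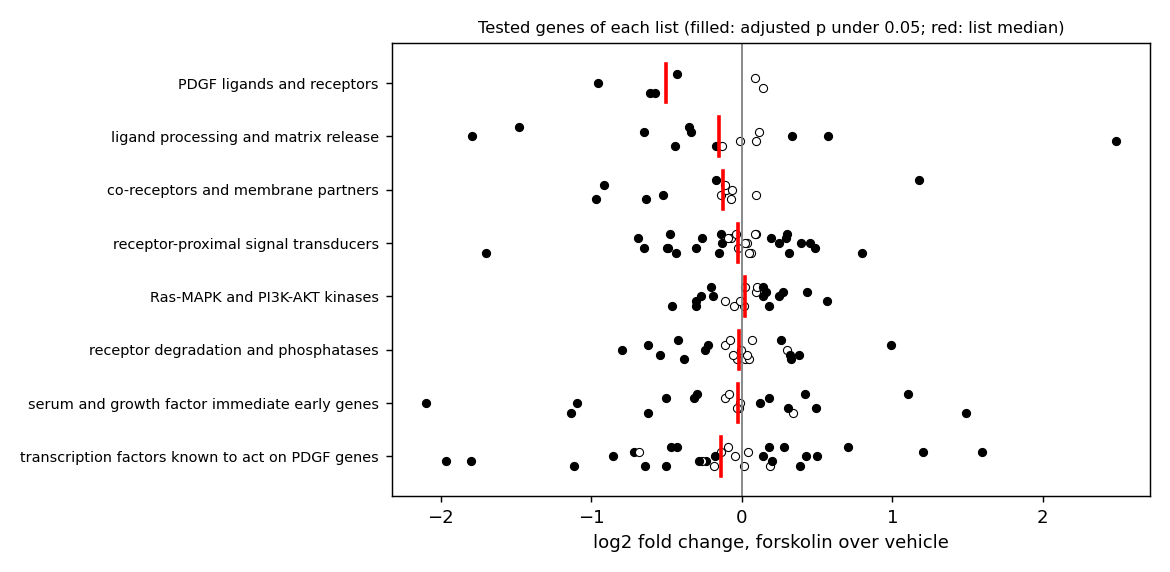
Log2 fold change, forskolin over vehicle, of each tested gene in the PDGF family (top row) and in the pathway lists, filled where the edgeR adjusted p was under 0.05, with a red line at each list's median. The median is -0.50 for the PDGF genes and between -0.15 and 0.02 for the pathway lists, which spread to both sides of 0.

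The cultures carried the markers of stellate cells in both groups: Reln was at 927 ± 71.8 CPM with forskolin and 831 ± 51.2 CPM with vehicle, Lrat was at 51.9 ± 9.09 CPM with forskolin and 55.0 ± 1.84 CPM with vehicle (SD, n = 3 each), and 9 of 14 such markers rose and 2 fell, against 24.8% higher and 25.1% lower over all tested genes. The markers that fell were Des, at 182 ± 20.8 CPM with forskolin and 323 ± 7.38 CPM with vehicle, and Ngfr, at 6.25 ± 1.12 CPM with forskolin and 15.6 ± 0.853 CPM with vehicle, and Gfap was under 1 CPM in both groups. Markers of cells that supply PDGF in liver summed to far less than those of stellate cells, though to more than Pdgfb or Pdgfc. The highest endothelial marker was Egfl7, at 21.2 CPM with forskolin and 18.2 CPM with vehicle. The highest platelet marker was Pf4, at 10.1 CPM with forskolin and 10.5 CPM with vehicle. The 15 endothelial markers summed to 40.6 to 41.1 CPM with forskolin and 38.2 to 42.6 CPM with vehicle, with Pecam1 at 0.397 CPM with forskolin and 0.379 CPM with vehicle and Emcn at 0. Of the 7 tested, Stab2 rose and Kdr, Tek and Lyve1 fell. The 15 macrophage markers summed to 38.6 to 39.7 CPM with forskolin and 35.3 to 37.2 CPM with vehicle, with Adgre1 at 0.0608 CPM with forskolin and 0.123 CPM with vehicle and Marco at 0. All 3 tested changed: Cd68, at 15.8 CPM with forskolin and 11.2 CPM with vehicle, and Csf1r rose, and Lyz2, at 4.23 CPM with forskolin and 10.8 CPM with vehicle, fell. The 10 platelet markers summed to 20.3 to 23.7 CPM with forskolin and 21.4 to 26.9 CPM with vehicle, with Gp6 at 0, and of 5 tested Itga2b rose and Selp fell. The part of these cells in the ligand levels was not tested. Hepatocyte markers summed to at most 5.26 CPM and lymphocyte markers to at most 0.820 CPM in any library. Cholangiocyte markers summed to 392 to 428 CPM with forskolin and 138 to 153 CPM with vehicle. Of these, Spp1, also a marker of activated stellate cells and myofibroblasts, gave 372 CPM with forskolin and 72.5 CPM with vehicle. Krt19 went the other way, at 35.1 CPM with forskolin and 71.3 CPM with vehicle. Of 4 tested, Sox9 and Spp1 rose and Krt19 and Tm4sf4 fell. The cholangiocyte gene Epcam was at 0.332 CPM with forskolin and 0.201 CPM with vehicle.

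Other mesenchymal cells also carry PDGF receptors. The summed levels of markers of these cells, and of activated stellate cells, were lower with forskolin. Over all tested genes 24.8% rose and 25.1% fell. All 7 vascular smooth muscle markers fell, their sum being 685 to 855 CPM with forskolin and 873 to 947 CPM with vehicle. Of 10 markers of activated stellate cells and myofibroblasts, 8 fell and 2, Timp1 and Spp1, rose. Their sums were 4519 to 4880 CPM with forskolin and 5415 to 5670 CPM with vehicle. This list does not separate activated stellate cells from other myofibroblasts. Of 12 markers of portal fibroblasts and mesothelium 7 were tested, 2 rose and 2 fell, the sum being 544 to 572 CPM with forskolin and 657 to 670 CPM with vehicle, mostly Fbln2, with Gpm6a at 0. Among them Thy1 rose to 4.93 ± 1.19 CPM with forskolin, against 0.650 ± 0.145 CPM with vehicle, and Cd34 to 19.6 ± 5.39 CPM with forskolin, against 3.86 ± 0.212 CPM with vehicle (SD, n = 3 each). Krt19 fell to 35.1 ± 4.36 CPM with forskolin, against 71.3 ± 4.83 CPM with vehicle. Fbln2 fell to 493 ± 15.8 CPM with forskolin, against 581 ± 10.8 CPM with vehicle (SD, n = 3 each). The part of these cell types, or of the activation state of the stellate cells, in the fall of Pdgfrb was not tested.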

How the data were processed

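Per the file headers and values, the authors deposited estimated counts without normalization, with 1 RefSeq transcript per symbol and all values multiples of 0.5 (31.8% not whole). STAR, HOMER and build mm10 are named in the submitters' processing notes. Versions of these tools were not given in the sources used here. These expected counts were rounded to whole numbers. The filter filterByExpr, with a minimum count of 10 and a minimum total of 15, left 13357 genes, and libraries received TMM factors. Groups were compared with edgeR 4.0.16 in R 4.3.3 (glmQLFit, glmQLFTest, group as the only term), with two-sided p-values adjusted over all tested genes by the Benjamini-Hochberg method. SE came from the quasi-likelihood F statistic. The fit was tested on simulated counts in which far fewer genes changed than passed in these data.

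The members and lists were chosen with earlier results of these data known. Named genes are all members, up to 4 called genes with the smallest adjusted p per pathway list, 11 further genes of the lists, and the 3 genes nearest in pattern to each receptor. Some genes that this rule takes are left out of the text. Alternatives were library size alone, upper quartile factors, DESeq2 1.42.0, no filter, a replicate block, library size as a covariate, rounding down, leaving out each library, and, chosen after the data were seen, a test against a 1.5-fold change. Depth was 10890193 to 15090262.5 counts per library. RefSeq upstream windows and GENCODE M21 exons are on GRCm38.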

Additional observations from a re-analysis of the deposited data

How the results depend on the processing

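Under the 13 alternatives planned, 74 of 78 values of the 6 tested PDGF genes kept their direction and side of the threshold. Pdgfa stayed between -0.64 and -0.52, Pdgfd between -0.98 and -0.90 and Pdgfrb between -0.46 and -0.39 on the log2 scale, with adjusted p of at most 0.000531, 6.46e-05 and 0.00014. Pdgfrl stayed between -0.74 and -0.51 and lost its call with the library size covariate, and Pdgfra gained one with library size alone. Pdgfc turned to -0.37 with that covariate and to -0.21 without forskolin A, in a range up to 0.34 without forskolin B. The number of PDGF genes past the threshold was 4 without any 1 library, and 1 when tested against a 1.5-fold change. Over all genes, 4297 passed with the covariate (1998 higher), and 1000 against a 1.5-fold change (422 higher, 578 lower). Without 1 library, 5566 to 6747 passed, 2713 to 3344 higher and 2853 to 3403 lower. The vehicle libraries were the deeper ones, so depth and group are partly confounded, and the cause of the lost calls was not tested. The receptor ratio difference was -0.55 to -0.49 without 1 library. Same-lettered libraries deviated together with correlations of only 0.0291, 0.0203 and 0.0377, so the letters were not taken as pairs; with the letter as a replicate block 6675 genes and the same number of PDGF genes, 4, passed, and the receptor ratio difference was -0.52 (exact sign-flip p = 0.25, the smallest possible). Of 533 values of the 41 other named genes, 9 turned sign, none of them past the threshold: Furin was 0.0286 with library size alone and 0.0148 with upper quartile factors, Cbl ranged from -0.10 to 0.00505 without 1 library, turning without forskolin C, and Ptpn2 was 0.0386, 0.0243 and 0.10 with library size alone, upper quartile factors and the covariate and ranged from -0.0695 to 0.0410 without 1 library, turning without forskolin A, forskolin C or vehicle A. Csf1r lost its call with the covariate and Ptpn11 gained one with library size alone. Depth limits Pdgfb and Pdgfc.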

Other observations

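A list was drawn up of transcription factors held to act on PDGF genes (37 in the table). Of its 31 tested genes 10 rose and 12 fell (median log2 fold change -0.13), against 24.8% and 25.1% of all tested genes. Action of these factors on PDGF genes in these cells was not tested. Tcf21, a transcription factor gene of stellate cells and other mesenchyme, had 27.0, 25.5 and 29.3 CPM in forskolin libraries A, B and C, against 108, 107 and 104 CPM in the vehicle libraries, and was among those that fell (log2 fold change -1.96, edgeR adjusted p = 2.21e-14). Mkl1, which encodes a serum response factor coactivator, fell by 1.11 and the hypoxia factor gene Epas1 by 0.85. Klf4, whose product represses smooth muscle genes in rat smooth muscle cells given PDGF-BB, rose to 274 ± 30.3 CPM with forskolin, against 119 ± 7.46 CPM with vehicle (log2 fold change 1.20, adjusted p = 4.13e-11; SD, n = 3 each). With log library size as a covariate 7 fell. Of the receptor tyrosine kinases most like the PDGF receptors, Csf1r rose to 18.3 ± 2.18 CPM with forskolin, against 13.2 ± 0.361 CPM with vehicle (adjusted p = 0.00176), a call lost with that covariate (adjusted p = 0.0637), and Kit and Flt3 did not reach the count filter.

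The genes nearest to Pdgfrb in pattern, by Euclidean distance between centred log2 CPM values over the 6 libraries among 10703 genes, were Esyt2, Fam149a and Slc7a6 (distances 0.0517, 0.0567 and 0.0631), with log2 fold changes of -0.43, -0.44 and -0.44. Those nearest to Pdgfra were Chst15, Poc5 and Fam114a2 (distances 0.0448, 0.0534 and 0.0584), with log2 fold changes of 0.08, 0.09 and 0.07, none of which passed. Fold changes close to those of the receptors follow from picking genes by pattern in the same libraries.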
